A study of Arabidopsis thaliana with 18 samples.

Results

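The morning clock genes examined here are 10 Arabidopsis thaliana genes of the circadian oscillator whose transcripts are known to peak around dawn or in the first part of the day. They were taken by locus: LHY (AT1G01060), CCA1 (AT2G46830), RVE8 (AT3G09600), RVE4 (AT5G02840), RVE6 (AT5G52660), RVE1 (AT5G17300), LNK1 (AT5G64170), LNK2 (AT3G54500), PRR9 (AT2G46790) and PRR7 (AT5G02810). All 10 were found among the 33602 gene models of the count tables, and all 10 passed the filter on low counts that left 20619 genes for testing. RNA sequencing was done on untreated whole plants with the Col0 background, grown in vitro with 0.3% sucrose at 20 °C under 16 h of light, at Boyes stage 1.02, when the first rosette leaves show. The 6 genotypes are lst8-1 (an lst8 mutant), yak1 (a yak1 mutant), yak1lst8-1 (the yak1 lst8 double mutant), maktor1g1 and maktor1g1maktor5g (both labelled maktor mutants, with no word on the gene affected) and the wild type Col0. Each has 3 numbered libraries; since the design text mentions only 2 biological replicates, p-values measure the spread between these libraries, part of which may be technical. The labels give no time of harvest.

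The plant clock is a set of transcription factors that repress or activate each other in turn over the day. LHY and CCA1, a pair of related MYB-like factors, act at dawn and repress the genes of the evening; the REVEILLE factors RVE8, RVE4 and RVE6 bind similar sites but activate, with LNK1 and LNK2 as coactivators that lack a DNA-binding domain of their own; PRR9 and PRR7 follow and repress LHY and CCA1. RVE1, a MYB-like factor of the same family, connects the clock to auxin synthesis. Since each of these transcripts cycles, a level in a single harvest depends on the time of day as well as on the genotype. LST8 is a partner of the TOR kinase, which couples growth to nutrient supply, and YAK1 is a kinase of the DYRK family.

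Levels are given as CPM, counts scaled to the library total after TMM normalisation. Library totals ran between 10801464 and 17548790 counts, so that with no count at all a gene could still reach 0.278 CPM in the smallest library (counting error only). The members had 53 to 5640 counts in every library. LST8-1 had 13 to 39 counts in the libraries labelled lst8-1 or yak1lst8-1, against 626 to 821 in Col0. YAK1 went against the knock-out named in the design text: it averaged 321 ± 75.5 CPM in the libraries labelled yak1 and 122 ± 20.3 CPM in Col0 (SD, n = 3 each). The log2 fold change was 1.39 ± 0.16 (SE; adjusted p = 6.11e-05), and gene counts do not show whether that transcript is intact. The summed level of 4 green shoot markers was 25017 to 28150 CPM in lst8-1, 33232 to 45198 CPM in the libraries labelled yak1, 33169 to 37840 CPM in yak1lst8-1 and 30891 to 33788 CPM in Col0. That of 5 root markers was 147.6 to 220.0 CPM in lst8-1, 121.3 to 177.8 CPM in the libraries labelled yak1, 144.8 to 180.8 CPM in yak1lst8-1 and 101.7 to 140.5 CPM in Col0. No marker was at 0 in any library, so both organs were present as labelled. The part of organ proportions in the results was not tested, and in whole plants fewer cells of a type and less RNA per cell cannot be told apart. The libraries numbered 1 stood apart on the third principal component (11.2% of the variance), at -37.2 to -13.6, against -7.53 to 28.4 for the 12 others. In 6 of the 10 members (CCA1, RVE4, RVE6, RVE1, LNK1 and PRR9) the library numbered 1 was the lowest of its genotype in all 6 genotypes, which held for 5.34% of all tested genes; each comparison was therefore repeated without those 6 libraries.

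The members lie on chromosomes 1, 2, 3 and 5. CCA1 and PRR9 are neighbours on chromosome 2, with 10411 bases and 3 other counted genes between them, and RVE4 and PRR7 are neighbours on chromosome 5, with 6617 bases and 3 other counted genes between them. None is close to the genes the genotypes are named for: RVE8 lies 3.27 Mb from LST8-1 on chromosome 3, and RVE6 7.23 Mb from YAK1 on chromosome 5. Gene ends are shared on opposite strands in 3 members, where counts are uncertain because use of the strand in counting is not stated. LNK1 shares 245 bases with AT5G64160, which had 125 to 258 counts, LNK2 shares 93 bases with AT3G54490, which had 0 to 2 counts, and 266 bases with the long non-coding RNA gene AT3G08405, and RVE1 shares 225 bases with AT5G17305.

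The 300 bases before the annotated start of each member were searched on both strands for 3 short motifs. The G-box (CACGTG), bound by bHLH and bZIP factors, was present in 5 of the 10 windows (LHY, CCA1, RVE1, PRR9 and PRR7), against 6.44% of the 32834 windows of the same length before the genes of the count tables. The CCA1-binding site in its form AAAAATCT was present before RVE6, against 7.52% of all windows. The evening element AAAATATCT was in none of the 10, against 2.62%; that says only that these letters are not in these windows. The motifs do not overlap one another in any of these windows. The 5 windows with a G-box are printed because this motif was the one found before more than 1 member. Bases come from the RefSeq genome and annotation of TAIR10.1, read 5′ to 3′ towards the gene, with the G-box in capitals.
LHY, chr1:37872-38171, minus strand: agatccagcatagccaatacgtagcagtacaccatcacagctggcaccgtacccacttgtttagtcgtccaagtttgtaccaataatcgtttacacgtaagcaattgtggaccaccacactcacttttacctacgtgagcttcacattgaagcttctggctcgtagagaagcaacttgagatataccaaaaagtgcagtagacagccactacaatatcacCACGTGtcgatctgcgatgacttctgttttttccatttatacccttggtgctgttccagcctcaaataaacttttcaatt
CCA1, chr2:19245291-19245590, plus strand: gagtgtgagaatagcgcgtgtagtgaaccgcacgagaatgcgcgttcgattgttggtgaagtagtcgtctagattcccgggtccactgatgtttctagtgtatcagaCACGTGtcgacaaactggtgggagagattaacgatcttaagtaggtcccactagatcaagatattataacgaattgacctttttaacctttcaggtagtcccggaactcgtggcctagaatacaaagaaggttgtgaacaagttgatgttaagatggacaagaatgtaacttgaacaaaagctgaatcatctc
RVE1, chr5:5692993-5693292, minus strand: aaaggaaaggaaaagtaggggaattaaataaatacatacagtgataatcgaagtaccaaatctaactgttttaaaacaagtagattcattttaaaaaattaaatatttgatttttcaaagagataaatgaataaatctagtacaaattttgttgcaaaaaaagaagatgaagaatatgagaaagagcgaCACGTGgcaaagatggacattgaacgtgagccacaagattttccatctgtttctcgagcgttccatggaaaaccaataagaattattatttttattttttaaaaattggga
PRR9, chr2:19232307-19232606, plus strand: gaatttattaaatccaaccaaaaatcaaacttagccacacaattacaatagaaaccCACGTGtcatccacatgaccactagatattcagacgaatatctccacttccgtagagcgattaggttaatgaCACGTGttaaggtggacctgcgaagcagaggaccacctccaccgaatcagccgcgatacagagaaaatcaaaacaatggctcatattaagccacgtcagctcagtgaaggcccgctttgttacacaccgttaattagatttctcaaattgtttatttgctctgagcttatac
PRR7, chr5:642031-642330, minus strand: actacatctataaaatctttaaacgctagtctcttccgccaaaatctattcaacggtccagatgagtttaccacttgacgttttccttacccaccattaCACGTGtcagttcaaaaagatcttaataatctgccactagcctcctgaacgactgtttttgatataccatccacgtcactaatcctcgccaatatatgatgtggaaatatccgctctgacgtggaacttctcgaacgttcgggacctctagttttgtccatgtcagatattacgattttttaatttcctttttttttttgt
The G-box lies at -80 to -75 from the gene start in LHY, at -193 to -188 in CCA1, at -111 to -106 in RVE1 and at -201 to -196 in PRR7. PRR9 has a pair, at -244 to -239 and at -172 to -167.

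In Col0 the members differed widely in level when counted per kilobase of transcript. PRR7 was the highest at 86.1 ± 6.37 CPM per kb, followed by LNK2 at 39.1 ± 4.28 and RVE4 at 38.4 ± 1.62, whose libraries overlapped, and LNK1 at 22.1 ± 2.81 (SD, n = 3). CCA1 stood at 9.37 ± 0.767, RVE6 at 8.32 ± 0.153 and RVE1 at 7.52 ± 1.20 CPM per kb, with overlap between RVE6 and RVE1. LHY was the lowest at 3.24 ± 0.247 CPM per kb, just under the overlapping pair RVE8 and PRR9. The order differed in the libraries labelled yak1lst8-1, where LNK2 led at 127 ± 3.33 CPM per kb, above PRR7 at 71.8 ± 3.65. LHY there was sixth of 10 at 37.1 ± 4.70 CPM per kb, and its libraries overlapped those of LNK1 and RVE1, its neighbours in that order.

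**Figure D1:**
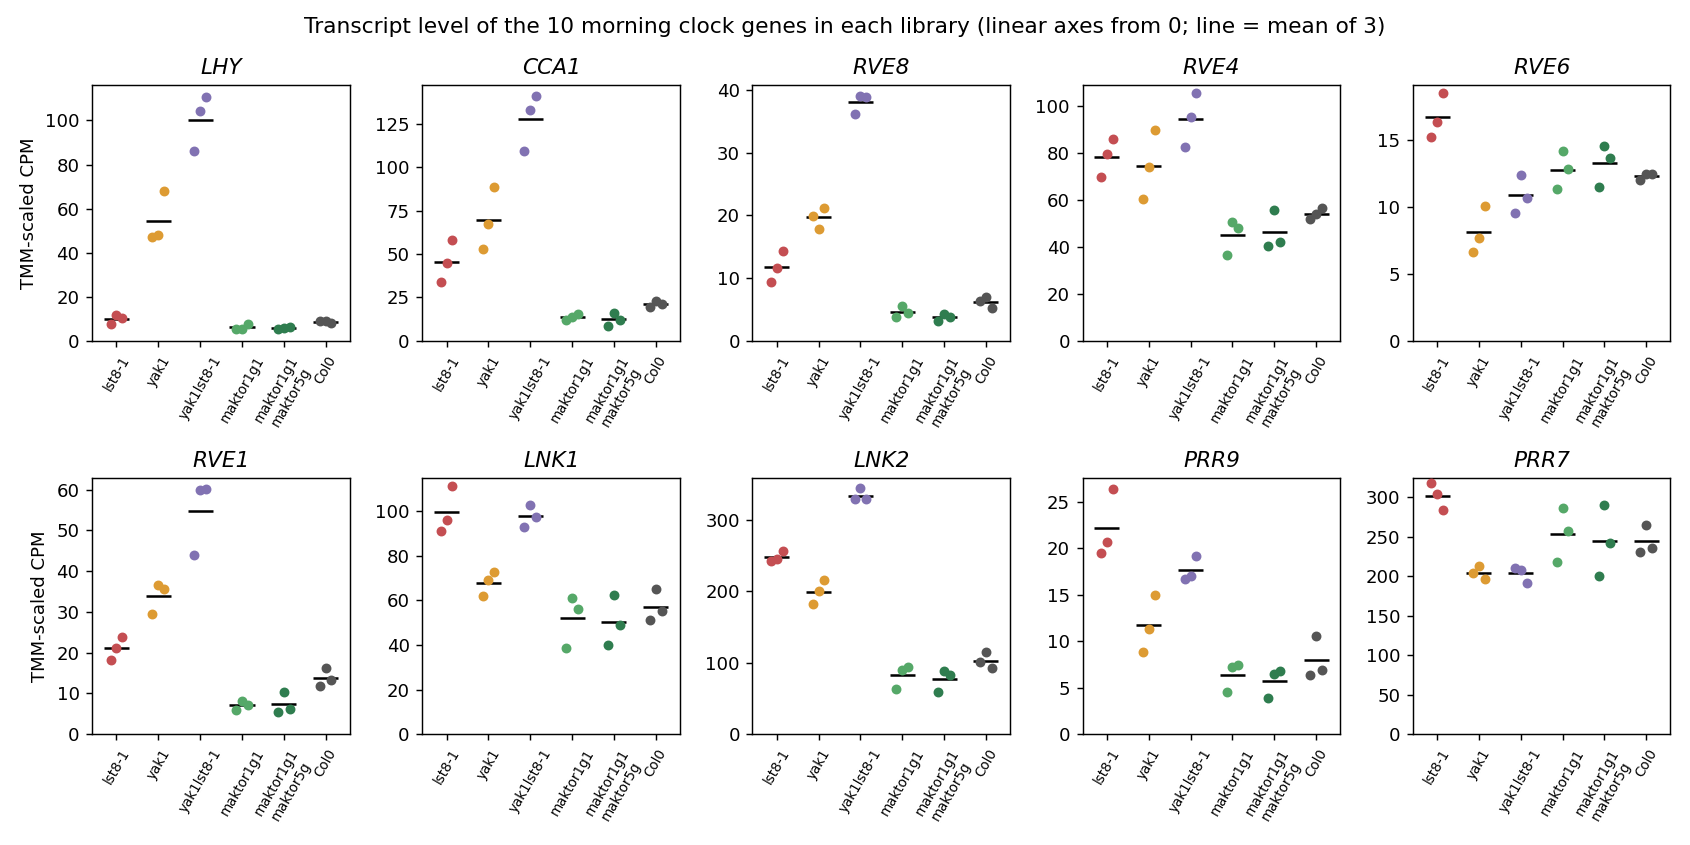
TMM-scaled CPM (vertical axes, linear and starting at 0) of each morning clock gene in the 18 libraries, by genotype, with Col0 at the right; each point is a library and each line the mean of 3. LHY, CCA1, RVE8, RVE1 and LNK2 were highest in the libraries labelled yak1lst8-1, without overlap with the other genotypes, and RVE6 in lst8-1; PRR9 and PRR7 had their highest means in lst8-1, where the PRR7 libraries overlap those of both maktor genotypes.

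The comparison of lst8-1 with Col0 asked which morning transcripts differ where LST8-1 is low. Of the 10 members, 9 rose and none fell at an adjusted p below 0.05; over all tested genes 14.1% were called higher and 13.4% lower. The median log2 fold change of the members was 0.71, against 0.00 over all tested genes. LHY was the member that was not called. Log2 fold changes lay between 0.20 (LHY) and 1.48 (PRR9). In the same comparison 3 of the 5 root markers were called higher and 1 of the 4 green shoot markers lower; their part in these differences was not tested.

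PRR9 and LNK2 had the highest log2 fold changes of the members in lst8-1, while PRR7 had the lowest of the called ones. PRR9 stood at 19.5, 20.7 and 26.4 CPM in the lst8-1 libraries, against 6.40, 10.54 and 6.96 CPM in Col0. All 3 lst8-1 libraries lay above all 3 of Col0 (log2 fold change 1.48 ± 0.23, SE, adjusted p = 0.000192). PRR7, which acts after PRR9 in the day, stood at 318, 304 and 284 CPM in lst8-1 and at 231, 264 and 236 CPM in Col0, a small difference without overlap (0.31 ± 0.11, adjusted p = 0.0478). LNK2 stood at 242, 246 and 257 CPM in lst8-1 and at 101, 115 and 93.1 CPM in Col0, the smallest adjusted p of the 10 (1.27 ± 0.14, adjusted p = 5.65e-06). LNK1 rose by 0.80 ± 0.16 (adjusted p = 0.00146), with 91.3 to 111 CPM in lst8-1 and 51.1 to 65.2 CPM in Col0.

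The MYB-like repressors did not move together in lst8-1. CCA1 stood at 33.6, 44.7 and 57.9 CPM in lst8-1, against 19.6, 23.1 and 21.1 CPM in Col0, and was called higher (1.09 ± 0.23, adjusted p = 0.00268). LHY stood at 7.91, 11.9 and 10.3 CPM in lst8-1, against 9.14, 9.15 and 7.99 CPM in Col0; the ranges overlap, the log2 fold change was 0.20 with a 95% interval of -0.19 to 0.59, and the adjusted p was 0.460. Of the activators, RVE8 rose by 0.92 ± 0.16 (adjusted p = 0.000387), RVE4 by 0.53 ± 0.15 (adjusted p = 0.0156) and RVE6 by 0.44 ± 0.14 (adjusted p = 0.0257), each without overlap between the libraries. RVE1 rose by 0.61 ± 0.19 (adjusted p = 0.0275), with 18.2, 21.2 and 23.9 CPM in lst8-1 and 11.9, 16.2 and 13.4 CPM in Col0.

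The 4 calls with the largest adjusted p were lost under some alternatives. PRR7 was not called with RLE size factors (0.30, adjusted p = 0.0510) or with no filter on low counts (0.31, adjusted p = 0.0504). PRR7 was no longer called without lst8-1 replicate 1 or 2, any of the yak1 or yak1lst8-1 replicates, replicate 3 of either maktor genotype, or Col0 replicate 1 or 3 (adjusted p between 0.0513 and 0.139), nor without the 6 libraries numbered 1 (adjusted p = 0.117). RVE1 lost its call without lst8-1 replicate 2 or 3 or Col0 replicate 1 or 3 (adjusted p between 0.0692 and 0.104), RVE6 without lst8-1 replicate 2 or 3 or any Col0 replicate (0.0518 to 0.0944) and RVE4 without lst8-1 replicate 3 or Col0 replicate 1 (0.0579 and 0.0503).

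Libraries labelled yak1, in which the YAK1 transcript was higher, were compared with Col0 next. Of the 10 members 5 rose (LHY, CCA1, RVE8, RVE1 and LNK2) and 1 fell (RVE6); over all tested genes 5.75% were called higher and 6.11% lower. The median log2 fold change of the members was 0.76, against -0.01 over all tested genes. In the main fit both MYB-like repressors were called higher and neither PRR repressor was called, while the RVE activators and the LNK coactivators were split. That depends on the fit. A replicate block added calls of PRR9 (0.56, adjusted p = 0.0183) and RVE4 (0.45, adjusted p = 0.00237) as higher and PRR7 as lower (-0.25, adjusted p = 0.0448).

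LHY stood at 47.0, 47.8 and 68.1 CPM in the libraries labelled yak1, against 9.14, 9.15 and 7.99 CPM in Col0, far apart (log2 fold change 2.635 ± 0.17, SE, or 6.21-fold; adjusted p = 6.97e-08). Of the organ markers, 1 of 4 green shoot and 1 of 5 root markers were called higher in the same comparison. CCA1 stood at 52.8, 67.2 and 88.5 CPM in the libraries labelled yak1, against 19.6, 23.1 and 21.1 CPM in Col0 (a rise of 1.71 ± 0.23 on the log2 scale, adjusted p = 0.000276). RVE1 stood at 29.4, 36.7 and 35.5 CPM in the libraries labelled yak1, against 11.9, 16.2 and 13.4 CPM in Col0 (1.296 ± 0.19, adjusted p = 0.000385). None of these 3 genes had overlapping libraries.

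The 3 RVE activators differed among themselves in the libraries labelled yak1. RVE8 stood at 19.9, 17.8 and 21.2 CPM there, against 6.40, 7.0 and 5.21 CPM in Col0 (adjusted p = 3.76e-06). RVE4 was at 60.4, 74.0 and 89.7 CPM in the libraries labelled yak1 and at 52.0, 54.2 and 56.5 CPM in Col0, without overlap but short of the threshold (0.46 ± 0.15, adjusted p = 0.0591). RVE6 was at 6.62, 7.70 and 10.13 CPM in the libraries labelled yak1 and at 12.1, 12.5 and 12.5 CPM in Col0, and fell by 0.60 ± 0.15 on the log2 scale (adjusted p = 0.0130). RVE6 lost its call without yak1 replicate 1 (-0.46, adjusted p = 0.0618) and without the 6 libraries numbered 1 (-0.48, adjusted p = 0.0520), while RVE4 gained one in both cases (0.59, adjusted p = 0.0195, and 0.56, adjusted p = 0.00787). RVE6 was also not called when only the genotypes compared were fitted (-0.60, adjusted p = 0.0640), and RVE4 was called with library totals (0.41, adjusted p = 0.0393) and by DESeq2 (0.47, adjusted p = 0.0269). RVE4 also gained a call without yak1lst8-1 replicate 1 (adjusted p = 0.0498), maktor1g1 replicate 1 (0.0425) or maktor1g1maktor5g replicate 2 (0.0360).

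Of the coactivators, LNK2 was at 182, 201 and 216 CPM in the libraries labelled yak1 and 101, 115 and 93.1 CPM in Col0 (0.95 ± 0.14, adjusted p = 0.000325), and LNK1 was not called (0.25, 95% interval -0.09 to 0.59, adjusted p = 0.350). PRR9, at 8.90, 11.3 and 14.99 CPM in the libraries labelled yak1, overlapped Col0 and was not called (0.57 ± 0.24, adjusted p = 0.142). PRR7, at 204, 212 and 196 CPM, lay below the 231 to 264 CPM of Col0 without overlap, but was not called either (-0.26 ± 0.11, adjusted p = 0.15).

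**Figure D2:**
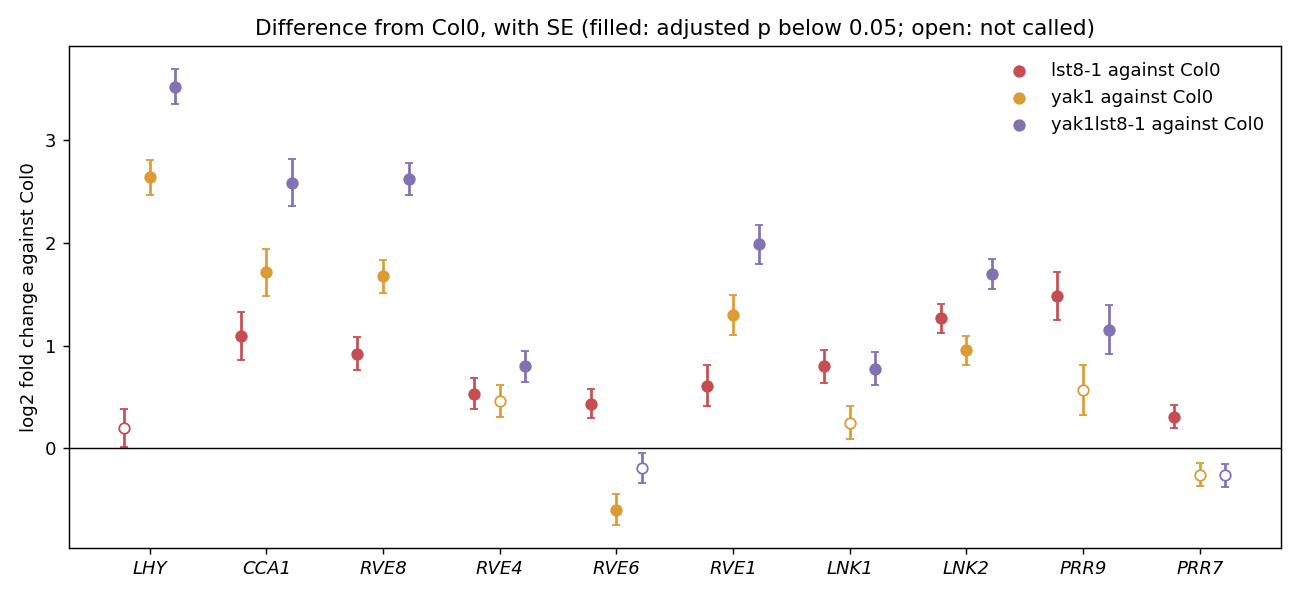
Log2 fold change against Col0 (vertical axis) of each morning clock gene (horizontal axis) in lst8-1, yak1 and yak1lst8-1, from 1 fit to all 18 libraries; bars are SE, filled points are called at an adjusted p below 0.05 and open points are not. LHY has 0.20 in lst8-1 and 3.52 in yak1lst8-1, and PRR7 has 0.31 in lst8-1 and -0.26 in the other two.

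The double mutant had the highest levels of the dawn factors in the series. Against Col0, 8 of the 10 members rose and none fell in the libraries labelled yak1lst8-1; over all tested genes 10.3% were called higher and 8.65% lower. The median log2 fold change of the members was 1.43, against -0.01 over all tested genes. LHY stood at 86.2, 104 and 111 CPM, against 9.14, 9.15 and 7.99 CPM in Col0, a rise of 3.52 ± 0.17 (adjusted p = 1.04e-09), or 11.5-fold. Of the organ markers, 1 of 4 green shoot and 2 of 5 root markers were called higher in this comparison; their part was not tested. CCA1, at 109, 133 and 141 CPM, rose by 2.59 ± 0.23 (adjusted p = 2.25e-06), RVE8, at 36.1, 39.0 and 38.9 CPM, by 2.62 ± 0.15 (adjusted p = 4.86e-09) and RVE1, at 43.9, 59.9 and 60.1 CPM, by 1.98 ± 0.19 (adjusted p = 2.08e-06). The lowest yak1lst8-1 library of each of these 4 genes was above the highest library of every other genotype.

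LNK2, at 329, 344 and 329 CPM in the libraries labelled yak1lst8-1, likewise lay above every library of the other genotypes, and rose by 1.70 ± 0.14 against Col0 (adjusted p = 3.76e-07). RVE4 rose by 0.80 ± 0.15 (adjusted p = 0.00133), LNK1 by 0.77 ± 0.16 (adjusted p = 0.00269) and PRR9 by 1.16 ± 0.24 (adjusted p = 0.00235). RVE6, at 9.55, 12.4 and 10.7 CPM, overlapped Col0 (-0.19 ± 0.14, adjusted p = 0.388). PRR7, at 210, 208 and 191 CPM, lay below Col0 without overlap and was not called (-0.26 ± 0.11, adjusted p = 0.114); without the 6 libraries numbered 1 it was (-0.33, adjusted p = 0.0297).

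Set against lst8-1, the libraries labelled yak1lst8-1 had 5 members called higher (LHY, CCA1, RVE8, RVE1 and LNK2) and 2 called lower (RVE6 and PRR7); over all tested genes 16.4% were called higher and 16.6% lower. In the same comparison 3 of the 4 green shoot markers were called higher, and of the 5 root markers 1 was called higher and 2 lower; their part was not tested. The comparisons share libraries, so each one's values are given on their own. CCA1 rose by 1.49 ± 0.22 (adjusted p = 0.000137), RVE8 by 1.70 ± 0.14 (adjusted p = 2.13e-07) and RVE1 by 1.37 ± 0.18 (adjusted p = 4.04e-05). PRR7 fell by 0.57 ± 0.11 (adjusted p = 0.000890) and RVE6 by 0.63 ± 0.14 (adjusted p = 0.00252), while LNK1 (-0.03 ± 0.16) and PRR9 (-0.33 ± 0.22) were not called. LNK2 was called at 0.43 ± 0.14 (adjusted p = 0.0236), and not without lst8-1 replicate 1 (adjusted p = 0.0694), lst8-1 replicate 2 (0.0666) or yak1lst8-1 replicate 2 (0.0640).

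Set against yak1, the libraries labelled yak1lst8-1 had LHY, CCA1, RVE8, RVE1 and LNK2 called higher and no member lower, where 1.88% of all tested genes were called higher and 1.11% lower. LHY rose by 0.88 ± 0.15 (adjusted p = 0.00256), RVE8 by 0.95 ± 0.14 (adjusted p = 0.000780) and LNK2 by 0.74 ± 0.14 (adjusted p = 0.00548). CCA1 (0.87 ± 0.21, adjusted p = 0.0404) and RVE1 (0.69 ± 0.18, adjusted p = 0.0479) were close to the threshold. Both lost the call when any 1 of these was left out: lst8-1 replicate 2, yak1 replicate 1 or 2, yak1lst8-1 replicate 2 or 3, any maktor1g1 replicate, maktor1g1maktor5g replicate 3 or Col0 replicate 3. RVE1 also lost it without yak1 replicate 3; the adjusted p were 0.0503 to 0.155 for CCA1 and 0.0508 to 0.186 for RVE1. With no filter on low counts and with only the genotypes compared neither was called (CCA1 0.0690 and 0.0799, RVE1 0.0658 and 0.0520), nor was RVE1 with RLE size factors (0.0507). LNK1, at 0.52 ± 0.16, was not called (adjusted p = 0.0967). DESeq2 called LNK1 (adjusted p = 0.0418), as did edgeR with only the genotypes compared (0.0159). LNK1 was also called without the 6 libraries numbered 1 (0.0299) and without maktor1g1 replicate 1 (0.0369). RVE6 was called without yak1 replicate 3 (0.59, adjusted p = 0.0389). A fit with the replicate number as a block called LNK1 (adjusted p = 0.00397), RVE4 (0.0266), RVE6 (0.0386) and PRR9 (0.014) higher as well.

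Whether the difference that goes with yak1 is itself different where LST8-1 is low was tested as an interaction. None of the 10 members was called by the main edgeR fit or by DESeq2, where the main fit called 3.47% of all tested genes. At an unadjusted p below 0.05 there were 3 members, against 3601 of the 20619 tested genes. With the replicate number as a block edgeR called 3 members, among 1889 genes. LHY had an interaction of 0.68 on the log2 scale (95% interval 0.18 to 1.19, adjusted p = 0.135), PRR9 of -0.90 (-1.59 to -0.21, adjusted p = 0.155) and LNK2 of -0.52 (-0.94 to -0.11, adjusted p = 0.165). For CCA1 the interval was -0.89 to 0.45, for RVE8 -0.43 to 0.48 and for RVE1 -0.49 to 0.64. Missing the threshold does not show that the 2 differences add up. LHY was called without yak1 replicate 3 (0.88, adjusted p = 0.0270) and LNK2 without the 6 libraries numbered 1 (-0.57, adjusted p = 0.0265).

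The ratio of LHY to CCA1 within a library shows how the pair differed. Per length, LHY was at 0.197, 0.224 and 0.149 of CCA1 in lst8-1, at 0.747, 0.597 and 0.645 in the libraries labelled yak1, at 0.663, 0.657 and 0.661 in yak1lst8-1, and at 0.391, 0.333 and 0.318 in Col0. The lst8-1 libraries lay below Col0 and both sets labelled with yak1 above it, without overlap, and in these 3 comparisons an exact two-sided permutation test gave p = 0.1, the smallest that 3 against 3 libraries allow. The libraries labelled yak1lst8-1 and yak1 averaged 0.660 ± 0.00331 and 0.663 ± 0.0765 (SD, n = 3 each). The ratio was 0.341 to 0.418 in maktor1g1 and 0.292 to 0.534 in maktor1g1maktor5g, overlapping Col0 in both.

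**Figure D3:**
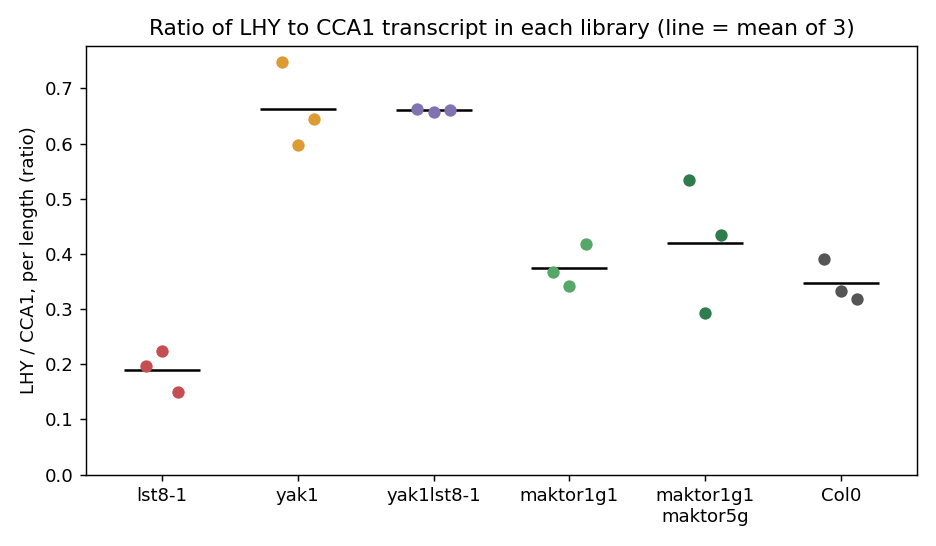
Ratio of LHY to CCA1 transcript per length (vertical axis, from 0) in each of the 18 libraries by genotype; points are libraries and lines the means of 3. The 6 libraries labelled yak1 or yak1lst8-1 lie between 0.597 and 0.747, the 3 of lst8-1 between 0.149 and 0.224, and those of Col0 between 0.318 and 0.391.

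In the maktor genotypes no member was called against Col0 by the main edgeR fit, where only 0.0679% of all tested genes were called in maktor1g1 and the same 0.0679% in maktor1g1maktor5g. With the replicate number as a block edgeR called 1 member in maktor1g1, among 238 genes, and 5 in maktor1g1maktor5g, among 653, all lower. At an unadjusted p below 0.05 the main fit had 5 members in each. Over all 20619 tested genes it had 1760 in maktor1g1 and 2353 in maktor1g1maktor5g at that cut. DESeq2 called RVE1 lower in maktor1g1 (-0.96, adjusted p = 0.00300) and RVE1 and RVE8 lower in maktor1g1maktor5g (-0.91, adjusted p = 0.00573, and -0.70, adjusted p = 0.0434). The members' log2 fold changes were negative in 8 of 10 in each genotype, with medians of -0.31 and -0.45, against 0.00 over all tested genes in both. The summed green shoot markers were 27757 to 30792 CPM in maktor1g1 and 25803 to 29286 CPM in maktor1g1maktor5g, below Col0 (30891 to 33788 CPM), with no marker called; their part was not tested. All 3 maktor1g1 libraries lay below all 3 of Col0 for 4 members (LHY, CCA1, RVE4 and RVE1), a pattern found in 6.27% of all tested genes. In maktor1g1maktor5g this held for 5 members (LHY, CCA1, RVE8, RVE1 and LNK2), against 6.97% of all tested genes.

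RVE1 had the lowest log2 fold change of the members in both maktor genotypes. It stood at 5.87, 8.15 and 7.22 CPM in maktor1g1 and at 5.44, 10.3 and 6.27 CPM in maktor1g1maktor5g, against 11.9, 16.2 and 13.4 CPM in Col0, with log2 fold changes of -0.96 ± 0.21 (adjusted p = 0.134) and -0.90 ± 0.21 (adjusted p = 0.112). By edgeR it was called in maktor1g1maktor5g without that genotype's replicate 2 (-1.24, adjusted p = 0.0219), as it was in maktor1g1 (-0.96, adjusted p = 0.0435). The edgeR fit with the replicate number as a block kept all libraries. It called RVE1 lower in maktor1g1 (-0.96, adjusted p = 0.000386) and in maktor1g1maktor5g (-0.91, adjusted p = 0.00041). CCA1 stood at 11.99, 13.7 and 15.5 CPM in maktor1g1 and at 8.64, 16.3 and 12.3 CPM in maktor1g1maktor5g, against 19.6, 23.1 and 21.1 CPM in Col0. LHY stood at 5.25, 5.58 and 7.73 CPM in maktor1g1 and at 5.50, 5.67 and 6.34 CPM in maktor1g1maktor5g, against 7.99 to 9.15 CPM in Col0. PRR7 overlapped Col0 in both, at 217 to 286 and 201 to 290 CPM. Between maktor1g1maktor5g and maktor1g1 no member was called by edgeR or DESeq2 and none had an unadjusted p below 0.05. Of all 20619 tested genes 0.0097% were called, and 360 had an unadjusted p below 0.05.

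A list of 12 evening and afternoon clock genes was read from the same fit. Whether the transcript of each of them cycles was not tested here. In lst8-1 against Col0, 2 of the 12 rose and 1 fell (median -0.06), where 14.1% of all tested genes were called higher and 13.4% lower. These counts are near those shares. GI, which acts with FKF1 in flowering, rose by 0.23 ± 0.07 (adjusted p = 0.0303). The photoreceptor ubiquitin ligase gene ZTL rose by 0.26 ± 0.09 (adjusted p = 0.0456), and PRR3 fell by 1.05 ± 0.16 (adjusted p = 0.000117). In the libraries labelled yak1 against Col0, 7 fell and none rose (median -0.46), where 6.11% of all tested genes were called lower and 5.75% higher. Among the 7, LUX, a DNA-binding subunit of the evening complex, fell by 0.58 ± 0.08 (adjusted p = 9.87e-05). TOC1, a repressor of the morning genes, fell by 0.68 ± 0.12 (adjusted p = 0.00115). In yak1lst8-1 against Col0, 9 fell and none rose (median -0.86), where 8.65% of all tested genes were called lower and 10.3% higher. Among the 9, the blue-light receptor gene FKF1 fell by 1.62 ± 0.11 (adjusted p = 1.53e-08) and PRR3 by 2.09 ± 0.18 (adjusted p = 3.09e-07). For yak1lst8-1 against lst8-1 the count was 10 lower and none higher, where 16.6% of all tested genes were called lower and 16.4% higher. Against yak1 it was 3 lower and none higher, where 1.11% of all tested genes were called lower and 1.88% higher.

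In the maktor genotypes 3 of the 12 evening and afternoon genes rose in maktor1g1 and 2 in maktor1g1maktor5g, and the other 9 and 10 were not called. ELF4, of the evening complex, rose by 0.71 ± 0.10 in maktor1g1 (adjusted p = 0.00322) and by 0.75 ± 0.10 in maktor1g1maktor5g (adjusted p = 0.00167). LUX rose by 0.47 ± 0.07 (adjusted p = 0.0142) and 0.53 ± 0.07 (adjusted p = 0.00316). FKF1 was called in maktor1g1 (0.56 ± 0.10, adjusted p = 0.0406), and no gene of the 12 was called lower in either. These calls, 3 of 12 in maktor1g1 and 2 of 12 in maktor1g1maktor5g, stand among 14 in each over all tested genes.

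**Figure D4:**
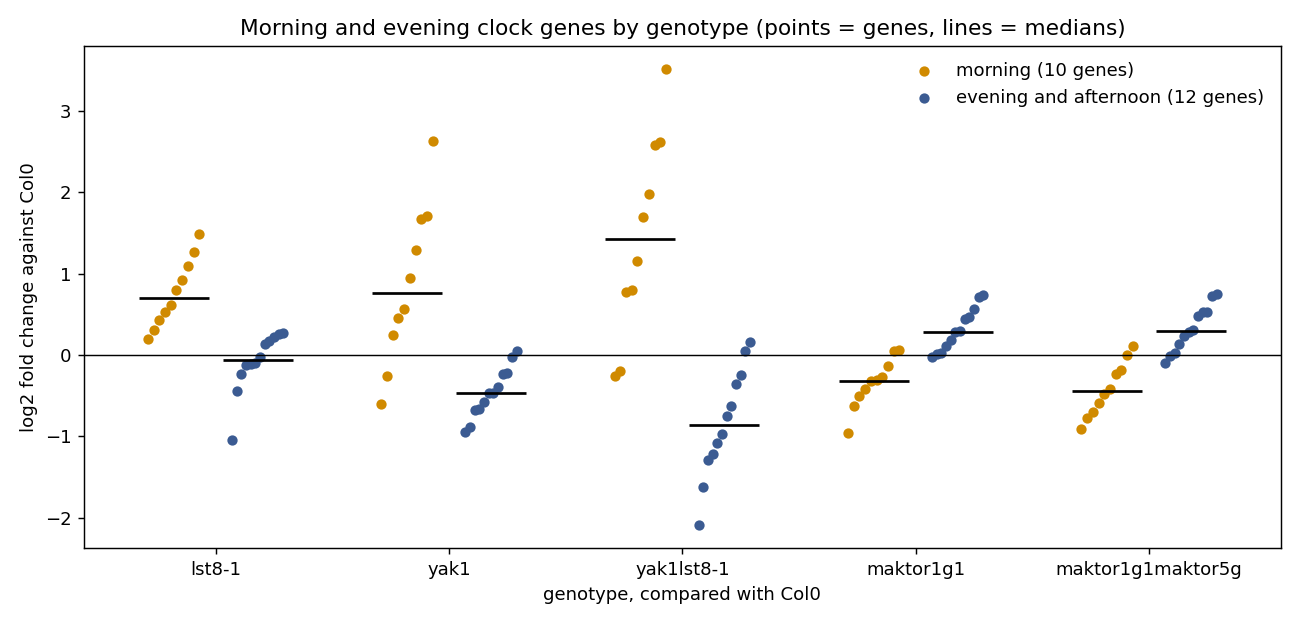
Log2 fold change against Col0 (vertical axis) of the 10 morning and the 12 evening and afternoon clock genes in each mutant genotype (horizontal axis); points are genes and black lines medians. The medians are 0.76 and -0.46 in yak1 and 1.43 and -0.86 in yak1lst8-1, and have the opposite signs in maktor1g1 (-0.31 and 0.29) and maktor1g1maktor5g (-0.45 and 0.29).

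Of 6 relatives of the members outside the 10, 4 rose and 1 fell in lst8-1, 2 rose in the libraries labelled yak1 and 4 rose in yak1lst8-1, each against Col0. Over all tested genes the shares called higher were 14.1%, 5.75% and 10.3% in these comparisons. LNK3 and LNK4 are homologs of LNK1 and LNK2. LNK3 rose by 1.02 ± 0.24 in lst8-1 (adjusted p = 0.00453), by 1.18 ± 0.24 in the libraries labelled yak1 (adjusted p = 0.00415) and by 1.93 ± 0.23 in yak1lst8-1 (adjusted p = 2.47e-05), each against Col0. LNK4 rose by 1.11 ± 0.19 in lst8-1 (adjusted p = 0.000464) and by 1.02 ± 0.19 in yak1lst8-1 (adjusted p = 0.00128). RVE2 fell in lst8-1, with 11.8 ± 0.598 CPM there and 18.5 ± 4.92 CPM in Col0 (SD, n = 3 each; -0.65 ± 0.17, adjusted p = 0.00996).

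The genes with the most similar pattern over the 18 libraries were found by Pearson's correlation of log2 CPM, given as a description, since the libraries share genotypes. CCA1 was closest to STH (r = 0.996), a B-box protein gene, COL2 (r = 0.993) and AT2G41250 (r = 0.988), and the likeness held within genotypes, at 0.949, 0.881 and 0.911. PRR9 was closest to LNK4 (AT5G06980; r = 0.979, and 0.925 within genotypes), AT2G15020 (r = 0.975) and CDF3 (r = 0.963). LHY was closest to AT2G42690 (r = 0.979), the arginine decarboxylase gene ADC1 (r = 0.975) and the chloroplast glutamine synthetase gene GS2 (r = 0.974), but within genotypes the values were -0.08, -0.16 and 0.52. PRR7 was closest to AT2G16990 (r = 0.929), AT2G30600 (r = 0.912) and PUM6 (r = 0.906). Among the members themselves, CCA1 followed RVE8 and RVE1 most closely (r = 0.986 for each over the 18 libraries, and 0.696 and 0.824 within genotypes), whereas LHY and PRR7 ran opposite (r = -0.63, and -0.05 within genotypes).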

How the data were processed

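Polyadenylated RNA of whole plants was sequenced as stranded single-end libraries, per the labels. TopHat2, Bowtie2 and the TAIR10 build are named in the submitters' processing notes; versions are not given in the sources used here. The deposited values are counts of reads per gene model, per the file headers, which also record the removal by the authors of reads with multiple hits (1.85 to 2.22%). Pairs of libraries of a genotype differed by 2.91 to 21.9 in chi-square per degree of freedom, where 1 is counting noise. None was therefore counted as a second run of the same library. The value cannot tell separate preparations of the same plants from separate plants.

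Groups follow the titles. The analysis used edgeR 4.0.16 (R 4.3.3) with filterByExpr by genotype and TMM scaling. It fitted 1 robust quasi-likelihood model over all 18 libraries and 20619 genes, with genotype as its term (12 residual degrees of freedom). The code was tested on simulated data that held no effect of the replicate number, so that test does not bear on such an effect. Tests were two-sided, with Benjamini-Hochberg adjustment over all genes tested; a call is an adjusted p below 0.05. SE and 95% intervals derive from each fold change and its F statistic. Log2 CPM for correlations and components used a prior count of 2. Alternatives were RLE factors, library totals, no filter, DESeq2 1.42.0, only the genotypes compared, a replicate block, and leaving out libraries. The exact permutation tests used scipy 1.17.1. Members and gene lists were chosen with earlier results of these data known. Besides the members, genes were named from pools set by rule. From each other list the pool was up to 4 called genes with the smallest adjusted p in a comparison, and not all were named. For LHY, CCA1, PRR9 and PRR7 it was the 3 genes most like each, with at least 5 CPM in their highest genotype. TAIR10.1 served for positions and promoters.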

Additional observations from a re-analysis of the deposited data

Results flagged for a closer look

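A pair of clock genes outside the 10 was called by the interaction term of the edgeR fit. In these the difference between yak1 and Col0 differed from the one between yak1lst8-1 and lst8-1. They were 1 of the 12 evening and afternoon clock genes and 1 of the 6 relatives of the members. None of the 11 clock output genes was called, and over all tested genes 3.47% were. Lists this small do not set these calls apart from that share. RVE2, a relative of RVE1, had an interaction of 0.95 on the log2 scale (adjusted p = 0.0363): it stood at 27.9 ± 2.18 CPM in yak1lst8-1 and 11.8 ± 0.598 CPM in lst8-1, and at 22.7 ± 3.59 CPM in the libraries labelled yak1 and 18.5 ± 4.92 CPM in Col0 (SD, n = 3 each). FKF1 had an interaction of -0.55 (adjusted p = 0.0466), with 26.0 ± 4.29 CPM in yak1lst8-1 and 73.7 ± 10.3 CPM in lst8-1, and 41.7 ± 1.43 CPM in the libraries labelled yak1 and 80.4 ± 3.63 CPM in Col0.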

How the results depend on the processing

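No called member changed direction under any alternative run. Leaving out each of the 18 libraries in turn gave 5 to 9 called members in lst8-1 against Col0, 6 to 7 in yak1 and 8 in yak1lst8-1, 6 to 7 in yak1lst8-1 against lst8-1, 3 to 5 against yak1, 0 to 1 in each maktor genotype against Col0 and in the interaction, and 0 between the maktor genotypes. Over all genes these fits called 4134 to 5980 in lst8-1, 1663 to 2521 in yak1 and 2852 to 4235 in yak1lst8-1 against Col0. For yak1lst8-1 they called 5150 to 7148 genes against lst8-1 and 299 to 754 against yak1. The range was 6 to 27 in maktor1g1, 8 to 33 in maktor1g1maktor5g and 347 to 839 in the interaction. With no filter on low counts, yak1lst8-1 against yak1 had 3 called members in place of 5. Over all genes that setting gave 538 calls in place of 617. DESeq2 called 1 member in maktor1g1 and 2 in maktor1g1maktor5g, where the main edgeR fit called 0. In the interaction 1 member (LNK2) was called when only the genotypes compared were fitted and 1 (LNK2) without the libraries numbered 1.

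With the replicate number as a block, 9 members in place of 6 were called in yak1 against Col0, with RVE4 (0.45, adjusted p = 0.00237) and PRR9 (0.56, adjusted p = 0.0183) called higher and PRR7 lower (-0.25, adjusted p = 0.0448). PRR7 was also called lower in yak1lst8-1 against Col0 (-0.26, adjusted p = 0.0326), and RVE4 higher in yak1lst8-1 against lst8-1 (0.27, adjusted p = 0.0263). With the block, 9 members were called in yak1lst8-1 against yak1, 1 in maktor1g1 and 5 in maktor1g1maktor5g against Col0, all lower, and 3 in the interaction (LHY higher, LNK2 and PRR9 lower). Over all genes the block gave 4111 calls in place of 2446 for yak1 against Col0, 1604 in place of 617 for yak1lst8-1 against yak1, 238 in place of 14 for maktor1g1, 653 in place of 14 for maktor1g1maktor5g, and 1889 in place of 715 for the interaction. The numbers share a positive correlation of deviations over 0.1 in 31 of 45 pairs of same-numbered libraries (-0.05 to 0.55). A library was closest to its own number in 61 of 90 cases, each with 3 numbers to choose from. Same-numbered libraries thus share part of their deviations, which the main fit leaves out. The block was run as an alternative only, and which members miss a call depends on that choice. Fits of only the genotypes compared called 929 genes for yak1 against Col0, 333 for yak1lst8-1 against yak1 and 338 for the interaction. With library totals yak1 had 905 genes higher and 1541 lower, against 1186 and 1260 with TMM; yak1lst8-1 had 1738 and 2166 against Col0 (2121 and 1784 with TMM) and 2710 and 4053 against lst8-1 (3386 and 3418). DESeq2 called 101 genes in maktor1g1 and 157 in maktor1g1maktor5g; in maktor1g1maktor5g library totals gave 32, no filter 23 and only the genotypes compared 5. Between the maktor genotypes the count was 2, with 1 under library totals or only the genotypes compared and 3 with DESeq2. The causes were not tested.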

Other observations

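Known outputs of the clock were read from a list of 11 genes. In the libraries labelled yak1 against Col0 2 rose and 5 fell, where 5.75% of all tested genes were called higher and 6.11% lower. In yak1lst8-1 against Col0 3 rose and 6 fell, where these shares were 10.3% and 8.65%. In lst8-1 1 rose and 1 fell, which is not above the shares of 14.1% and 13.4%. No gene of the list was called in either maktor genotype, where 0.0679% of all tested genes were called in each. The list was not split by time of peak. The RNA-binding protein genes GRP7 and GRP8, known as evening-phased outputs, fell in yak1lst8-1 by 1.84 ± 0.16 (adjusted p = 8.00e-07) and by 0.84 ± 0.08 (adjusted p = 5.44e-07). The cold-regulated COR27 stood at 2.32 ± 0.537 CPM in yak1lst8-1, 6.89 ± 2.98 CPM in the libraries labelled yak1, 15.8 ± 6.20 CPM in lst8-1, 46.5 ± 6.11 CPM in maktor1g1, 45.6 ± 8.25 CPM in maktor1g1maktor5g and 24.1 ± 4.04 CPM in Col0 (SD, n = 3 each). It fell by 3.37 ± 0.35 in yak1lst8-1 (adjusted p = 7.73e-06) and by 1.80 ± 0.29 in the libraries labelled yak1 (adjusted p = 0.00116), and was not called in either maktor genotype. COR28, its homolog, fell in lst8-1 as well, by 0.87 ± 0.19 (adjusted p = 0.00309). The catalase gene CAT2 rose in lst8-1 by 0.82 ± 0.21 (adjusted p = 0.00943).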
